A study of Mus musculus with 14 samples.

Results

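Nilestriol was compared with vehicle in mouse bone marrow by microRNA (miRNA) array, without irradiation and after 8 Gy of gamma-rays. The comparison took 6 of the 14 arrays of the series, chosen by their labels: 2 from nilestriol-pretreated mice and 4 from mice given phosphate-buffered saline (PBS). Each array held RNA pooled from 3 male C57BL/6 mice aged 6 to 8 weeks, taken 12 h after irradiation with 0 or 8 Gy. Nilestriol was given by the i.g. route at 150 mg/kg, 48 h before irradiation, with 1 array at 0 Gy and 1 at 8 Gy. At each dose vehicle had 1 array of PBS given i.p. and 1 of PBS given i.g. The other bone marrow arrays, 1 each of amifostine (10 mg/kg i.p.) and of CBLB502 (0.2 mg/kg i.p.) at each dose, both given 0.5 h before irradiation, also entered the fits. The doses were set apart knowing that the 0 Gy nilestriol array lay far from vehicle, so the size of that departure is a description. Every group of drug and dose was a single pool. In the tests of a single dose or of the difference between doses, the spread came from the vehicle pairs alone, and the lone nilestriol array was assumed to vary like them. In the comparisons over both doses, all 10 arrays added to the spread.

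Nilestriol is a long-acting synthetic oestrogen derived from oestriol, and oestrogens are known to protect blood formation from radiation when given in advance. miRNAs are short RNAs that pair, through the seed at bases 2 to 8, with messenger RNAs and lower their translation and stability. Bone marrow carries miRNAs typical of its cells: miR-223 of granulocytes, miR-451a and miR-144 of red cell precursors, miR-150 and miR-181 of lymphocytes, and miR-125b, miR-126 and miR-130a of stem cells and progenitors. Of these defining markers, miR-223-3p, miR-142-3p, miR-451a, miR-150-5p and miR-155-5p were detected on 6 of the 6 arrays. The liver, neuronal, epithelial and endocrine markers miR-122-5p, miR-124-3p, miR-9-5p, miR-205-5p and miR-375-3p were detected on 0 of the 6, while the muscle miRNA miR-1a-3p and the epithelial miR-200c-3p were detected on all 6.

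Signals below are log2 of the array's processed signal after division by that array's 75th percentile, so a difference of 1 stands for a 2-fold signal. A floor of -5.31 was set under faint values. Of 1247 miRNAs, 371 were detected on at least 5 of the 10 bone marrow arrays and were tested. The 2 nilestriol arrays detected 394 miRNAs at 0 Gy and 380 at 8 Gy, against 332 to 367 on the vehicle arrays. Amifostine had 403 and 377, and CBLB502 363 and 370. Both nilestriol arrays lay on slide 2 with the amifostine arrays, and all 4 vehicle arrays lay on slide 1 with CBLB502. Nilestriol and slide therefore cannot be told apart in any difference from vehicle given here.

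The sequences that the results turn on are shown first, from RefSeq (GRCm38.p6), 5′ to 3′ with the seed in capitals. The miRNAs lower under nilestriol at 0 Gy included both members of a hairpin pair at chr11:70235062-70235082 and chr11:70234730-70234751 on the plus strand. These share the seed of miR-15 and miR-16, which repress cyclins and other cell cycle genes.
miR-195a-5p: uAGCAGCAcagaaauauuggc
miR-497-5p: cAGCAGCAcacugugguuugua
A second pair shared a seed with opposite results, miR-130a-3p at chr2:84741116-84741137 (minus strand, between genes) being lower and miR-721 at chr5:136375777-136375797 (minus strand, within Cux1) being higher.
miR-130a-3p: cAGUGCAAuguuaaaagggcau
miR-721: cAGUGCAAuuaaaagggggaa
Other miRNAs lower at 0 Gy were miR-199a-5p, a mesenchymal miRNA with copies within Dnm3 (chr1:162217844-162217866, plus strand) and Dnm2 (chr9:21496537-21496559, minus strand), and miR-152-3p within Copz2 (chr11:96850439-96850459, plus strand). let-7c-5p has 2 loci, on chromosomes 15 and 16. miR-221-3p (chrX:19146307-19146329, minus strand) lies between genes and miR-362-3p (chrX:7241984-7242005, minus strand) within Clcn5.
miR-199a-5p: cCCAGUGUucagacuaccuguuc
miR-152-3p: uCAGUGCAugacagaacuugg
let-7c-5p: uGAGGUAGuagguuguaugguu
miR-221-3p: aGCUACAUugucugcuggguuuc
miR-362-3p: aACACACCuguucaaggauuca
The miRNAs higher at 0 Gy were G-rich as a group, as the examples below show. miR-1224-5p lies within Vwa5b2 (chr16:20604452-20604472, plus strand), miR-5128 within Strbp (chr2:37688212-37688234, minus strand), miR-211-3p within Trpm1 (chr7:64205868-64205888, plus strand) and miR-3099-3p within Usp29 (chr7:6803638-6803659, plus strand). miR-365-1-5p is at chr16:13453855-13453877 and miR-23a-5p at chr8:84208527-84208548, both on the plus strand.
miR-1224-5p: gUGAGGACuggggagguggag
miR-5128: cAAUUGGGgcuggcgagauggcu
miR-211-3p: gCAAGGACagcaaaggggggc
miR-3099-3p: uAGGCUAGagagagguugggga
miR-365-1-5p: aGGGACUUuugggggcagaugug
miR-23a-5p: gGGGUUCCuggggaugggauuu

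Without irradiation, nilestriol marrow differed from vehicle at 35 of 371 miRNAs (9.43%), with 26 higher (7.01%) and 9 lower (2.43%) at an adjusted p under 0.05. The higher ones were led by miR-714, miR-5105 and miR-3059-3p, which have little established function in marrow. The lower ones included the miR-15/16 relatives miR-497-5p and miR-195a-5p, the progenitor miRNAs miR-130a-3p and miR-221-3p, and mesenchymal miR-199a-5p. Against the same vehicle arrays, 24 of the 26 were also higher on the 0 Gy amifostine array and 22 on the CBLB502 array. All 9 lower ones were lower on both. Of all 371, 295 had the sign of nilestriol under amifostine and 287 under CBLB502. Every one of the 35 had an adjusted p of 0.0493, and 171 had an unadjusted p under 0.05. The next miRNAs, 6 of them, stood at 0.0546, and 160 were under 0.1. The count was 0 when any 1 of the 4 vehicle arrays was left out, and 0 without scaling between arrays.

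miR-714 had 0.09 on the 0 Gy nilestriol array, against -2.96 and -2.63 on the 0 Gy vehicle arrays, a difference of 2.89 ± 0.23 (SE) and a 7.39-fold higher signal. miR-5105 had 5.75 under nilestriol, against 3.07 and 3.60 in vehicle, and rose by 2.42 ± 0.31 (5.34-fold). In each case the nilestriol value lay above both vehicle values, which follows from naming them for the largest called differences. miR-5128, from within Strbp, had 2.67 under nilestriol against 1.28 and 0.97 in vehicle (2.92-fold). miR-1224-5p, a mirtron (a miRNA spliced out as a whole short intron) of Vwa5b2, had 5.95 against 4.37 and 4.52 in vehicle (2.85-fold). The 26 higher miRNAs differed by 0.55 to 2.89.

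Of the 26, 16 were detected on all 6 arrays and 7 were not detected on either 0 Gy vehicle array, so that the size of their rises depends in part on the floor. These 7 were miR-3059-3p, miR-6347, miR-365-1-5p, miR-193b-5p, miR-664-5p, miR-344i and miR-23a-5p. miR-3059-3p had -3.31 under nilestriol against -5.31 and -5.20 in vehicle, a rise of 1.95 with the floor used here, and a difference of 0.13 with normexp background correction. miR-6347 had -3.97 against the floor of -5.31 on both vehicle arrays and rose by 1.34 with that floor. In 15 of the 26, at least 1 of the 0 Gy vehicle values was at the floor, and in 3 all 4 vehicle values were, which leaves no measured spread between the vehicle arrays. Other miRNAs in the group were miR-678 (1.64), miR-710 (1.61), miR-327 (1.58), miR-3093-3p (1.47), miR-3099-3p (1.46) and miR-711 (1.38). With normexp background correction the differences of miR-678, miR-710, miR-327, miR-3093-3p and miR-3099-3p lay between 0.01 and 0.21 and were not called, and those of miR-711 and miR-6347 were just below 0. With the scanner software's totals miR-678 was negative. The largest difference of any tested miRNA, 2.93 ± 0.49 for miR-3474, had an adjusted p of 0.0583, with 0.46 under nilestriol against -2.86 and -2.09 in vehicle. miR-3474 was named for its size after its values were seen.

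Among the 9 lower miRNAs, miR-199a-5p lay at the floor of -5.31 on the nilestriol array, against -3.52 and -3.07 in vehicle, so that its fall of 2.01 depends on the floor. Its difference ran from -3.11 to -0.717 over the settings. miR-497-5p had -4.97 against -3.36 and -2.93 and fell by 1.82 ± 0.23 (3.53-fold), though its sign was positive with the scanner software's totals. Its cluster partner miR-195a-5p had -3.06 against -1.96 and -1.80 and fell by 1.18 ± 0.11. Both members of the cluster thus stood below both vehicle arrays, where the nilestriol array lay outside both for 329 of all 371 miRNAs. miR-130a-3p, a miRNA of progenitors and megakaryocytes, had -2.81 against -1.75 and -1.56 and fell by 1.15 ± 0.12. Its seed partner miR-721 had the opposite sign, with -1.16 under nilestriol against -2.36 and -2.22 in vehicle, a rise of 1.13 ± 0.15. The mature sequences of the pair, printed above, also resemble each other after the seed.

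miR-152-3p, a member of the miR-148 family, was not detected on the nilestriol array and had -4.28 and -4.12 in vehicle, so that its fall of 1.11 depends on the floor. Its difference ran from -7.425 to -0.082 over the settings. miR-151-5p, whose gene lies in an intron of Ptk2, had -4.41 against -3.33 and -3.31 and fell by 1.09 ± 0.08. let-7c-5p, one of the miRNAs that rise as cells differentiate, had 1.04 against 2.02 and 1.87 and fell by 0.91 ± 0.10. miR-221-3p, which represses Kit and the cell cycle inhibitor p27, had -1.80 against -0.86 and -0.99 and fell by 0.88 ± 0.10. miR-362-3p, from a cluster within Clcn5, fell by 0.65 ± 0.09. On 8 of the 9, chosen for being low on it, the nilestriol array was below all 4 vehicle arrays, against 133 of all 371. The exception was miR-362-3p, at -3.42 under nilestriol against -3.44 and -3.54 in irradiated vehicle.

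**Figure D1:**
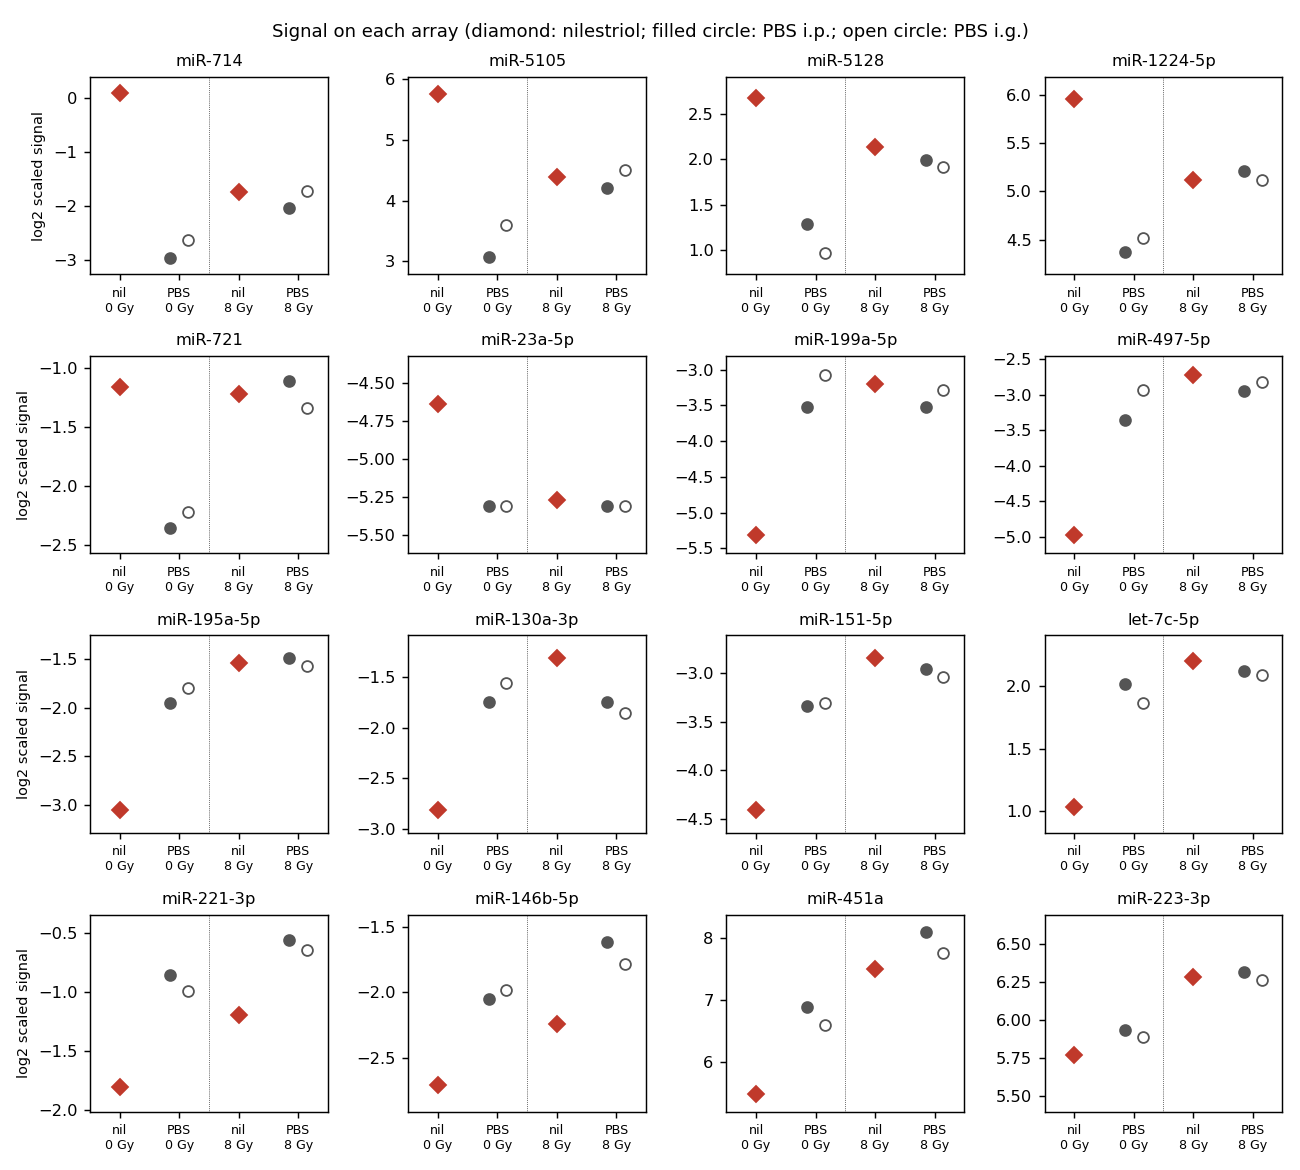
Log2 scaled signal of 16 miRNAs on each of the 6 arrays, with nilestriol (diamond) left of PBS (filled circle i.p., open circle i.g.) at 0 Gy and then at 8 Gy. At 0 Gy the nilestriol array lies outside both vehicle arrays in all panels, as it does for 329 of all 371 tested miRNAs (88.7%). At 8 Gy, where it does so for 244 (65.8%), it lies below both again for miR-221-3p, miR-146b-5p and miR-451a.

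Families sharing a seed mostly had 1 sign at 0 Gy, with few members past the threshold. Over all 371 tested miRNAs, 204 were lower at 0 Gy and 9 of these were called (2.43%), which is the share to read the counts of members against. All 9 tested let-7 members were lower on the nilestriol array, with a median difference of -0.84, against -0.09 over all tested miRNAs; 1 of the 9, let-7c-5p, was called. Of 6 miR-15/16 seed relatives all 6 were lower (median -0.66) and 2 were called. The 11 tested miRNAs of the miR-17 cluster and its paralogs, which drive proliferation of blood precursors, were all lower with a median of -0.63 and 0 called. The 5 members of the miR-30 family were all lower (median -0.63), 0 called. These medians were also negative on the 0 Gy amifostine and CBLB502 arrays, against the same vehicle arrays. They were -0.30 and -0.30 for let-7, -0.43 and -0.39 for miR-15/16, -0.25 and -0.25 for the miR-17 group, and -0.35 and -0.43 for miR-30. The families of miR-25 and miR-92a (median -0.93) and of miR-181 (median -0.85) had 3 of 3 and 4 of 4 members lower, 0 called. With each array's trend on the GC content of the probes taken out, the nilestriol medians were -0.32 for let-7 (9 of 9 lower) and -0.24 for miR-15/16 (5 of 6 lower). They were then -0.50 for the miR-17 group (9 of 11 lower) and -0.69 for miR-30 (5 of 5 lower). Members of a family resemble each other in sequence, so their signals are not independent. In 2 of 10 seed groups a member ran against the rest: miR-6394 (1.16, adjusted p 0.0727) beside miR-125b-5p (-1.50, adjusted p 0.0546), and miR-721 beside miR-130a-3p.

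The lists of miRNAs typical of marrow cells were lower at 0 Gy by count, where 204 of all 371 were lower and 9 called. All 11 tested stem and progenitor miRNAs were lower, with a median of -0.98, of which miR-130a-3p and miR-221-3p were called. The same list had a median of -0.74 on the 0 Gy amifostine array and of -0.45 on the CBLB502 array, against the same vehicle arrays. miR-125b-5p had -2.90 under nilestriol against -1.56 and -1.26 in vehicle, a difference of -1.50 (adjusted p 0.0546). miR-126-3p, a stem cell and endothelial miRNA, had -1.89 against -0.67 and -0.28. All 8 stromal and endothelial miRNAs were lower (median -0.90), 1 of them called, with medians of -0.70 under amifostine and -0.38 under CBLB502. The 5 red cell miRNAs were lower with a median of -0.93 and 0 called, and had medians of -0.18 under amifostine and -0.13 under CBLB502. Under nilestriol miR-451a had 5.49 against 6.89 and 6.60 (-1.26, adjusted p 0.0638), and miR-3107-5p, the array's name for miR-486-5p, differed by -1.24. With the GC trend taken out, the nilestriol medians were -0.64 for the stem and progenitor list (9 of 11 lower), -0.92 for the stromal and endothelial list (8 of 8) and -0.56 for the red cell list (5 of 5). In bulk marrow, fewer cells of a type and less of a miRNA per cell cannot be told apart.

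miR-99a-5p, of the miR-99/100 family found in stem cells, had -3.96 under nilestriol against -2.91 and -2.70 in vehicle (-1.16, adjusted p 0.0546). miR-199a-3p, the other arm of the called miR-199a-5p, had -3.87 against -2.12 and -1.73 (-1.95, adjusted p 0.0583). Both arms of miR-199a thus lay below both vehicle arrays, where 329 of all 371 miRNAs lay outside both. let-7e-5p had the largest difference of its family, at -4.56 against -3.26 and -2.94 (-1.46, adjusted p 0.0583). miR-34a-5p, the best known p53 target among miRNAs, had -3.01 at 0 Gy under nilestriol against -2.12 and -2.30 in vehicle. At 8 Gy it had -0.38 against -0.21 and -0.37, so that it was high in irradiated marrow with and without the drug.

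RNA of other tissues was followed through the muscle list, since marrow is flushed from bone surrounded by muscle. The summed scaled signal of its members was 0.106 on the 0 Gy nilestriol array against 0.272 and 0.216 in vehicle, and 0.282 at 8 Gy against 0.296 and 0.160. miR-1a-3p had -4.25 under nilestriol at 0 Gy against -2.97 and -3.00. The list's 0 Gy median was -1.27 and ran from -2.415 to 1.04 over the alternative settings, so that its sign changed. The part of muscle RNA in the other differences was not tested.

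The granulocyte miRNA miR-223-3p was close to vehicle, with 5.77 under nilestriol against 5.93 and 5.89 (-0.14, adjusted p 0.235), and the 7 myeloid miRNAs had a median of -0.35, 0 called; that median changed sign under some alternative settings. The 9 lymphoid miRNAs had a median of -0.74, 0 called. The 8 megakaryocyte and platelet miRNAs had a median of -0.49, with miR-130a-3p called. On the 0 Gy amifostine and CBLB502 arrays the medians were -0.52 and -0.62 (myeloid), -0.18 and -0.30 (lymphoid), and -0.63 and -0.29 (megakaryocyte and platelet). With the GC trend taken out, the nilestriol medians were 0.18 (myeloid, 3 of 7 lower), -0.44 (lymphoid, 7 of 9) and -0.20 (megakaryocyte and platelet, 4 of 8). The oestrogen receptor linked list holds miRNAs reported in human or rodent work to target the receptor or respond to it. It had 10 of 10 lower (median -0.60) and miR-221-3p called, where 204 of all 371 were lower and 9 called lower (2.43%). Its median was -0.43 under amifostine and -0.36 under CBLB502, and 7 of the 10 were lower under nilestriol, with a median of -0.22, once each array's trend on GC was taken out. The inflammation list had 5 of 7 lower (median -0.69), among them miR-146a-5p at -1.06 and the called miR-221-3p. The 8 miRNAs of bone-forming and bone-resorbing cells had a median of -0.44 and the 4 p53-responsive ones -0.50, 0 called in either. The median of the bone list was 0.09 with the GC trend removed.

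**Figure D2:**
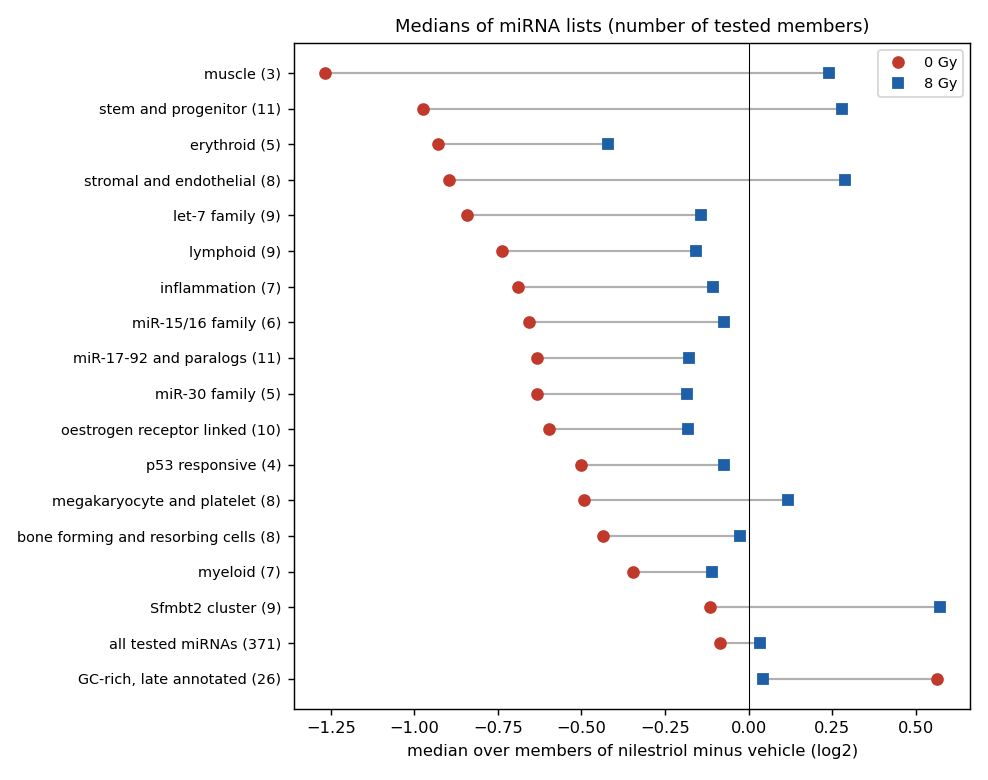
Median over the tested members of each list with at least 3 of them of the nilestriol minus vehicle difference (log2), for 0 Gy (circle) and 8 Gy (square). At 0 Gy the lists lie between -0.35 and -1.27 except the Sfmbt2 cluster (-0.11) and the GC-rich list (0.56), and all tested miRNAs together at -0.09, and at 8 Gy between -0.42 and 0.57.

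The list of late annotated, mostly GC-rich miRNAs had 24 of 26 tested members higher at 0 Gy, against 156 of all 371, with a median of 0.56. Of its members 5 were called higher (miR-5105, miR-5128, miR-1224-5p, miR-711 and miR-721), against 26 of all 371 (7.01%). miR-721 is not GC-rich, with 37.3% GC in its probes against a median of 54.8% over all tested miRNAs. The list's median was also positive on the 0 Gy amifostine array (0.32) and the CBLB502 array (0.30). Its summed scaled signal was 197.4 on the nilestriol array, against 96.22 and 108.0 on the 0 Gy vehicle arrays. At 8 Gy it was 153.9, against 168.2 and 145.6. Across the 371 miRNAs the 0 Gy difference followed the GC content of the array's probes, with a Spearman correlation of 0.509, given as a description since all miRNAs share 1 array. The median difference was -0.56 for the 90 miRNAs with probes of 40 to 50% GC and 0.39 for the 68 over 70%. Of the 9 miRNAs called lower, 7 fell in the first of these bins, while 8 of the 26 called higher were in the last. The 21 called-higher miRNAs with a RefSeq sequence had a median of 45.5% G, against 26.7% in the 8 called-lower ones and 30.4% in the 299 tested ones with a sequence.

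A slope of like sign appeared on the other 0 Gy drug arrays, at 0.427 for amifostine on the nilestriol slide and 0.439 for CBLB502 on the vehicle slide. At 8 Gy it was 0.220 for nilestriol, 0.143 for amifostine and 0.39 for CBLB502. The i.p. against i.g. vehicle arrays gave -0.166 at 0 Gy and 0.048 at 8 Gy. With the GC trend removed from each array, 102 miRNAs were called at 0 Gy, 55 higher and 47 lower, of which 29 were among the 35. The part of base composition in the single results was not tested.

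**Figure D3:**
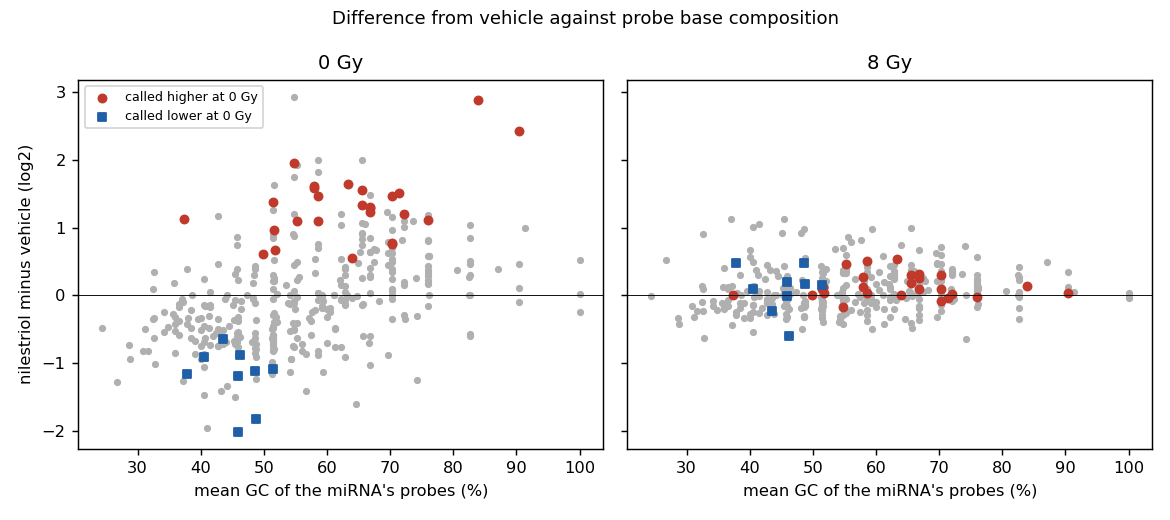
Nilestriol minus vehicle difference (log2) of 371 miRNAs against the mean GC content of their probes (%), at 0 Gy (left) and 8 Gy (right), with the miRNAs called at 0 Gy marked. The cloud tilts upward at 0 Gy, with a Spearman correlation of 0.509, and less so at 8 Gy (0.220).

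The 0 Gy nilestriol array was the most distant of the drug arrays from vehicle. The SD over tested miRNAs of its difference from vehicle was 0.781, against 0.302 between the vehicle arrays of that dose. Against the single vehicle arrays it was 0.851 (i.p.) and 0.737 (i.g.). The 0 Gy amifostine array, on the same slide, stood at 0.536. A difference of 1 or more was reached by 66 miRNAs at 0 Gy (17.8%), 43 higher and 23 lower. Against the 0 Gy PBS array of the same i.g. route, 31 were higher (8.36%) and 23 lower (6.20%) by 1 or more.

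**Figure D4:**
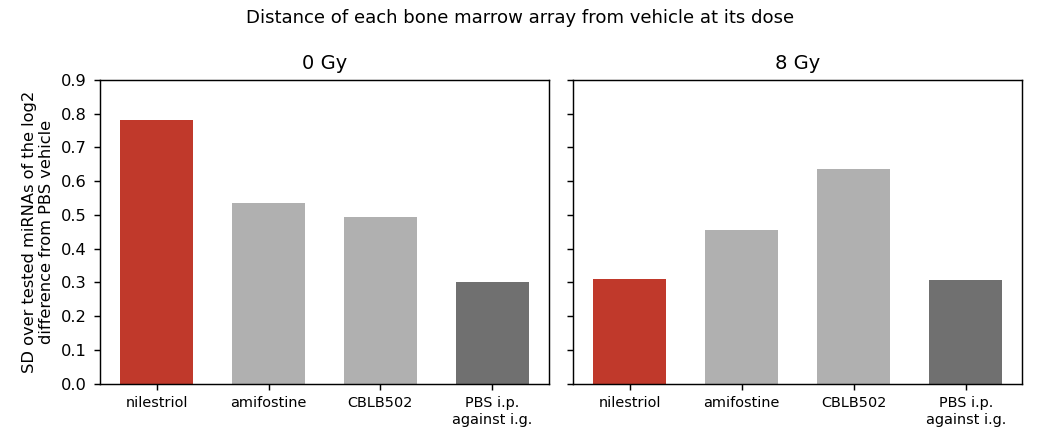
SD over 371 miRNAs of the log2 difference of each array from vehicle at its dose, with the vehicle arrays against each other as the darkest bar. Nilestriol stands at 0.781 at 0 Gy, above the other drug arrays there, and at 0.309 at 8 Gy, where the vehicle arrays are 0.308 apart; the drug bars are from a mean of 2 arrays and the vehicle bar from a single one.

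After 8 Gy the nilestriol array differed from the vehicle arrays by an SD of 0.414 (i.p.) and 0.259 (i.g.), against 0.308 between those vehicle arrays. limma called 0 of 371 miRNAs (0%), 36 had an unadjusted p under 0.05, and the smallest adjusted p was 0.474. A difference of 1 or more was reached by 4 miRNAs, all of the miR-466 and miR-669 family, many of whose members lie within Sfmbt2: miR-669c-3p (1.12), miR-466q (1.12), miR-669p-3p (1.05) and miR-466i-3p. They were picked for this size. miR-669c-3p had -2.46 under nilestriol against -3.85 and -3.31 in vehicle at 8 Gy, and -2.64 against -2.66 and -2.52 at 0 Gy. Against the i.g. vehicle array 0 miRNAs reached 1 in either direction (0%).

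The 9 tested members of the Sfmbt2 list had a median of 0.57 at 8 Gy, 0 called, against 0.03 over all tested miRNAs. Of the 9, 5 were higher and 4 lower: miR-669n (-0.35), miR-467a-5p (-0.18), miR-466i-5p (-0.16) and miR-467b-5p (-0.08). The median was 0.13 with normexp background correction, 0.16 with the scanner software's totals and 0.25 where detected on all 6 arrays. miR-466g, detected on 5 of 6 arrays, had -4.36 under nilestriol at 8 Gy against -5.31 and -5.26 in vehicle (0.92, adjusted p 0.474). At 0 Gy it had -4.47 under nilestriol against -4.57 and -4.28 in vehicle, so that the irradiated vehicle arrays were the lowest of the 6. miR-669f-3p had -3.20 at 8 Gy against -3.86 and -3.67 in vehicle. The 8 Gy amifostine and CBLB502 arrays had miR-669f-3p at -3.18 and -3.13. Members of this family are near-identical in sequence, so the signal of any 1 is uncertain.

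miR-221-3p had -1.19 under nilestriol at 8 Gy against -0.56 and -0.64, a difference of -0.60 ± 0.10 with an adjusted p of 0.474. miR-146b-5p, a brake on innate immune signalling, had -2.24 against -1.61 and -1.79. miR-432 had -3.67 against -4.66 and -4.41 (0.86 ± 0.15). miR-125b-1-3p and miR-193b-5p, both at the floor in vehicle, differed by 0.58 and 0.46 with the floor used here. Over the settings these differences ran from 0.04 to 0.58 and from 0 to 4.225.

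At 8 Gy 0 members of any list were called. Stem and progenitor miRNAs had a median of 0.28 with 9 of 11 higher, and stromal and endothelial ones 0.29 with 5 of 8 higher, where 203 of all 371 were higher. The red cell list stayed lower, 5 of 5 with a median of -0.42: miR-451a had 7.49 under nilestriol against 8.09 and 7.76. The let-7 median was -0.14. The sign of the 8 Gy medians for let-7, miR-15/16, stromal and endothelial, and megakaryocyte lists changed under some alternative settings. The stem and progenitor median was 0.01 with scaling over all miRNAs.

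All 35 miRNAs called at 0 Gy were smaller in size at 8 Gy, where their median size was 0.141, against 1.2 at 0 Gy. Since the 35 were chosen at 0 Gy, that shrinkage is a description. Of the 26 higher at 0 Gy, 20 were also positive at 8 Gy, and of the 9 lower, 3 were also negative. Across all 371, 237 (63.9%) had the same sign at both doses, with different vehicle arrays at each dose, and Pearson's r was 0.222. The difference between doses was tested as an interaction: limma called 0 of 371 (0%), 85 had an unadjusted p under 0.05 and the smallest adjusted p was 0.133. miR-151-5p (1.25 ± 0.11), miR-130a-3p (1.64 ± 0.18) and miR-152-3p (1.58 ± 0.15) had larger values at 8 Gy minus 0 Gy, and miR-714 (-2.74 ± 0.33) and miR-1224-5p (-1.55 ± 0.15) smaller, at adjusted p 0.133.

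**Figure D5:**
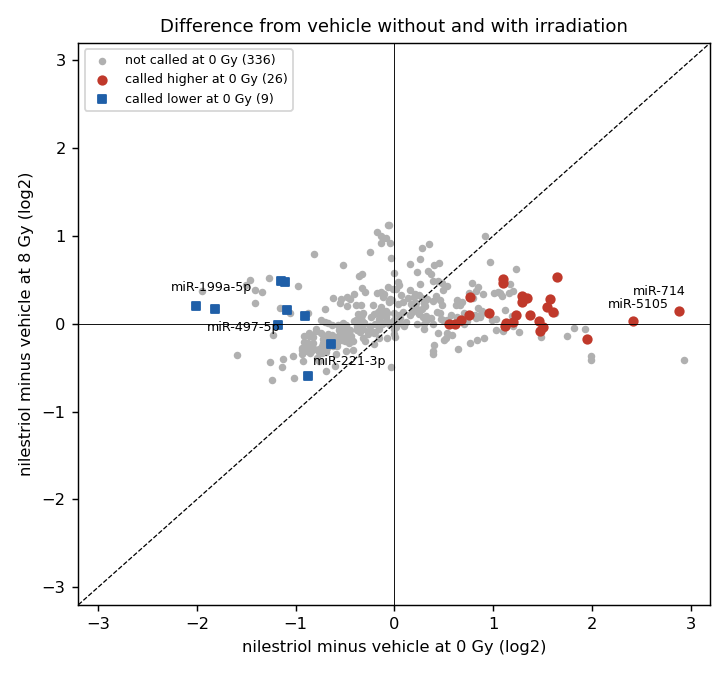
Nilestriol minus vehicle difference (log2) of each of 371 miRNAs at 0 Gy (horizontal) and 8 Gy (vertical), with equality dashed. The 35 miRNAs called at 0 Gy lie closer to 0 at 8 Gy than at 0 Gy, with a median size of 0.141, and miR-221-3p has the largest 8 Gy difference among them at -0.60.

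Irradiated vehicle gives a second level to set beside the 0 Gy nilestriol array. The 0 Gy vehicle arrays are shared by both comparisons, so the values are given side by side. miR-714 had 0.09 under nilestriol at 0 Gy, -2.03 and -1.72 in irradiated vehicle, and -2.96 and -2.63 in unirradiated vehicle. Both irradiated vehicle arrays lay above both unirradiated ones for 17 of the 26 called higher, and below both for 0, against 113 and 98 of all 371. The 0 Gy nilestriol array exceeded all 4 vehicle arrays in 25 of the 26, against 115 of all 371. Since the 26 were chosen for being high on that array, this count is a description. The exception was miR-721, at -1.16 under nilestriol against -1.11 and -1.34 in irradiated vehicle.

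Over both doses with dose as a covariate, limma called 0 of 371 miRNAs (0%), and 95 had an unadjusted p under 0.05. The smallest adjusted p, 0.116, was shared by miR-221-3p (-0.74 ± 0.12), miR-1935 (0.96 ± 0.18), miR-15b-3p (-0.82 ± 0.16) and miR-146b-5p (-0.61 ± 0.12). miR-146b-5p had -2.71 at 0 Gy and -2.24 at 8 Gy under nilestriol, against -2.05 and -1.98 at 0 Gy and -1.61 and -1.79 at 8 Gy in vehicle. The nilestriol array was below both vehicle arrays at each dose for miR-221-3p and miR-146b-5p. Of all 371, it lay outside both for 329 at 0 Gy and for 244 at 8 Gy. miR-451a (-0.84), miR-3107-5p (-0.94) and miR-222-3p (-0.81) followed at an adjusted p of 0.179. Dropping the 8 Gy nilestriol array gave 93 calls, and scaling over all miRNAs gave 72.

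Amifostine, a thiol radioprotector given i.p. at 10 mg/kg, had its arrays on the nilestriol slide, which makes it the comparison within a slide. It was given 0.5 h before irradiation and nilestriol 48 h before, so drug, route and timing differ together. Over both doses limma called 0 of 371 (0%), 34 had an unadjusted p under 0.05, and the smallest adjusted p was 0.491. miR-451a had 5.49 and 7.49 under nilestriol at 0 and 8 Gy, against 6.57 and 8.23 under amifostine, and miR-223-3p had 5.77 and 6.28 against 5.22 and 5.97. Among the 10 miRNAs with the smallest p-values, miR-504-3p (-1.99 ± 0.59) and miR-3070b-3p (-1.73 ± 0.45) had the largest differences. miR-504-3p had -4.74 and -5.31 under nilestriol against -4.09 and -1.98 under amifostine. Over all 371 the differences ran from -1.99 to 1.93, with 4 miRNAs higher and 3 lower by 1 or more. miR-144-5p, made from the same transcript as miR-451a, had -1.72 and -0.39 against -0.92 and 0.35. miR-10a-5p, encoded among the Hox genes, had -0.88 and -0.65 against -1.81 and -1.01. At 0 Gy alone 0 of 371 were called against amifostine, and 93 had an unadjusted p under 0.05. miR-714 was 2.46 ± 0.27 above amifostine (adjusted p 0.0984). miR-497-5p and miR-199a-5p differed from amifostine by -0.98 and -0.97 there (adjusted p 0.171 and 0.198). These values share the 0 Gy nilestriol array with the comparison against vehicle.

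Detection was also compared between nilestriol and vehicle. Of the 1247 miRNAs, 8 were detected on both nilestriol arrays and no vehicle array, and 0 showed the reverse. The nilestriol arrays also detected more miRNAs in all, 394 and 380 against 332 to 367 in vehicle. The amifostine arrays, on the nilestriol slide, detected 403 and 377. miR-99b-3p had -4.06 and -4.70 under nilestriol at 0 and 8 Gy, against -5.31 and -5.16 at 0 Gy and -5.31 on both arrays at 8 Gy in vehicle. miR-193b-5p had -4.21 and -4.85 and miR-1981-5p -4.49 and -4.82, against the floor on all vehicle arrays. The other 5, let-7f-1-3p, miR-291b-5p, miR-344i, miR-6239 and miR-718, were faint throughout, at -4.55 or lower on every one of the 6 arrays. miR-718 was at the floor on all 6, and let-7f-1-3p at 0 Gy had -5.21 under nilestriol against -5.13 and -4.95 in vehicle. 1 of the 8 was detected on both amifostine arrays, and each of the others on 1 of them. All but let-7f-1-3p were also detected on a CBLB502 array, with miR-193b-5p, miR-344i and miR-718 on both.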

How the data were processed

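Bone marrow RNA was read on 1-colour Agilent mouse miRNA arrays. The deposited scanner files give each spot's intensity, written by Agilent Feature Extraction (version 10.7.1.1 in the file headers). A deposited value table holds the authors' log2 values, whose scaling is not given in the sources used here. It served as an alternative. Spots were averaged per probe and per miRNA without outlier spots, and each array was divided by its 75th percentile over the 296 miRNAs seen on all 10 bone marrow arrays. Values were floored at log2 -5.31. limma 3.58.1 (R 4.3.3) tested the 371 miRNAs detected on at least 5 arrays, either with pretreatment and dose as terms (5 residual degrees of freedom) or with 8 group means for single doses and their difference (2 residual degrees of freedom). Tests were two-sided with Benjamini-Hochberg adjustment at 0.05. The number of arrays limits the precision. The fitting code was also run on simulated arrays with known shifts, whose outcome is not reported here. The hypothalamus arrays were not used here.

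The members and the 21 lists were chosen with earlier results of these data known. The rule for named miRNAs took the 12 highest and 12 lowest called per dose-specific or overall vehicle comparison (6 and 6 at 8 Gy, between doses and against amifostine), or the 10 smallest p-values where fewer than 6 were called, the miRNAs set apart by detection, and up to 4 members of each list by size. Others named among the called miRNAs, in seed groups and in hairpin arms were chosen after their values were seen. The muscle list (3 tested) had a median of -1.27 at 0 Gy, the neuronal list (2) -0.44 and the Dlk1-Dio3 cluster (2) 0.11. The liver and epithelial lists had 1 tested member each, at -0.38 and -0.50. The signs of the muscle, neuronal, Dlk1-Dio3 and liver values changed under some alternative settings. Of the 371, 299 matched a RefSeq mature sequence.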

Additional observations from a re-analysis of the deposited data

Results flagged for a closer look

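In 4 lists the median difference from vehicle had opposite signs at 0 and 8 Gy, with 1 sign against each vehicle array at 0 Gy and the other sign against each at 8 Gy. The lists overlap: miR-126-3p is in the stem, stromal and megakaryocyte lists. miR-130a-3p, miR-10a-5p and miR-10b-5p are in both the stem and the megakaryocyte list. For the stem and progenitor list the medians were -0.98 at 0 Gy and 0.28 at 8 Gy, a change of 1.25. For the stromal and endothelial list they were -0.90 and 0.29, a change of 1.185, and for the megakaryocyte and platelet list -0.49 and 0.12, a change of 0.61. For the Sfmbt2 cluster they were -0.11 and 0.57, a change of 0.69. Against the 8 Gy i.g. vehicle array alone, the medians were 0.09 (stem and progenitor), 0.08 (stromal and endothelial), 0.03 (megakaryocyte and platelet) and 0.48 (Sfmbt2). With the 75th percentile over all miRNAs the 8 Gy stem and progenitor median was 0.01, with 5 of 11 lower. The changes between doses were not tested. The 0 Gy median of the Sfmbt2 cluster was 0.15 without scaling and 0.17 with the GC trend removed, which ends the opposite signs. The 8 Gy medians of the stromal and endothelial and the megakaryocyte and platelet lists changed sign under some alternative settings.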

How the results depend on the processing

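The 0 Gy count of 35 (26 higher, 9 lower) became 152 with the 75th percentile over all miRNAs (46 and 106), 0 without scaling, 79 with quantile normalization (45 and 34), 87 with normexp (26 and 61), 56 with scanner totals (41 and 15), 153 where a constant was added instead of flooring (69 and 84), 81 where detected on all arrays (44 and 37) and 102 with the GC trend removed (55 and 47). The deposited table gave 51, with 21 higher and 30 lower. Of the 35, 13 were called with normexp, 15 with scanner totals, 19 with the deposited table and 22 where detected on all arrays. The GC trend removal kept 29, the added constant 31, quantile normalization 32 and the percentile over all miRNAs 33. Leaving out 1 array gave 0 to 35. Over both doses 0 became 72 with the percentile over all miRNAs and 8 with normexp, and leaving out 1 array gave 0 to 93, the 93 without the 8 Gy nilestriol array. At 8 Gy 0 became 7 with the deposited table, 3 with scanner totals, 6 with the added constant, 3 without the filter and 1 with a trend in the prior. The difference between doses had 14 calls with normexp, 12 with the deposited table, 17 with scanner totals, 52 with the added constant, 16 without the filter, 6 with the trend and 27 with the GC trend removed. Nilestriol against amifostine had 8 with normexp. The cause was not tested in any of these. Signs reversed under normexp for miR-1935 over both doses (-0.007099), miR-711 (-0.04181) and miR-6347 (-0.03929) at 0 Gy, and miR-711 (0.005754) and miR-6349 (0.06919) between doses. With scanner totals miR-678 (-2.548) and miR-497-5p (9.232) reversed at 0 Gy and miR-6349 (10.11) between doses, and miR-193b-5p was 0 at 8 Gy. Those totals departed over 4-fold from spot signal in 531 of 3524 detected values. The median of all tested miRNAs at 0 Gy ranged from -0.287 to 0.113 over the settings. With PBS i.g. alone as vehicle, single doses had no residual degrees of freedom and no test. The slide as a block could not be fitted against vehicle. Fits without the amifostine or the CBLB502 arrays, chosen after seeing the data, gave 35 at 0 Gy. No paired analysis was possible because the nilestriol groups hold 1 array each and share fewer than 2 replicate numbers with vehicle.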

Other observations

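miR-23a-5p and miR-23a-3p, arms of 1 hairpin, had opposite signs at 0 Gy, at 0.67 (called) and -0.48 (adjusted p 0.0657). Of 41 hairpins with both arms tested, 12 had opposite signs there, 23 had both arms lower, 2 had both higher and 4 had an arm at 0.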
